A study of Mus musculus with 12 samples.

Results

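The 9 genes described here encode the transcription factors that set macrophage and myeloid identity, Spi1 (the protein PU.1), Cebpa, Cebpb, Irf8, Irf5, Irf4, Batf3, Maf and Klf4. They were taken by name, and each was read by the probe set that the array's annotation gives to that gene alone, the one with the highest mean where a gene had several. Of the 9 genes, 8 had such a probe set, among 22180 genes measured in this way. The only probe set of Irf5 is annotated to Tnpo3 as well, so Irf5 has no level here. PU.1 and the C/EBP factors open and keep active the enhancers of myeloid genes. The interferon regulatory factors bind beside PU.1 or beside BATF-family partners, IRF8 and IRF5 being known for inflammatory and interferon-response genes and IRF4 for alternative activation. c-MAF is known for the programme of tissue-resident macrophages, Il10 included, and KLF4 acts in monocyte development and alternative activation.

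Expression was measured on 12 single-channel arrays of total RNA from primary mouse macrophages. The 4 groups, of 3 arrays each, were wild-type macrophages (WT MΦ), wild-type tumour-associated macrophages (WT TAM), Cd36 knockout macrophages (KO MΦ) and Cd36 knockout tumour-associated macrophages (KO TAM). Cd36 encodes a scavenger receptor for fatty acids and oxidised lipoproteins, and TAMs were made by keeping macrophages for 72 h with the mouse multiple myeloma line 5TGM1. The medium was RPMI with serum in every group. The sources used here do not give the strain, age and sex of the mice, the tissue the macrophages came from, the knockout allele, the time in culture of the MΦ groups, how myeloma cells were removed or whether arrays came from separate mice. A co-culture difference may therefore include time in culture, and p-values measure only the spread between these arrays, which may be technical. The design asks how co-culture with myeloma cells and loss of Cd36 change macrophage gene expression.

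Levels are log2 RMA intensities, and differences are log2 differences ± the standard error of the limma fit to all 12 arrays. A gene rose or fell where its limma p, adjusted by Benjamini-Hochberg over the 22180 genes, was under 0.05. Cd36 read 12.12 in WT MΦ and 12.32 in WT TAM, against 8.73 in KO MΦ and 8.91 in KO TAM, so the arrays fit their genotype labels. Xist, which silences 1 X chromosome in female cells, lay at 11.08 to 11.32 on WT arrays and at 3.91 to 4.35 on KO arrays, and so genotype and sex cannot be told apart. The mean of 8 macrophage markers was 11.48 to 12.02 on all arrays. The mean of 12 measured plasma cell, myeloma and B cell markers was 5.95 to 6.30 on all arrays, with Mzb1 at 5.06 to 5.49, Jchain, Tnfrsf17 and Pou2af1 at 3.28 to 4.66, Xbp1 at 9.66 to 10.21 and Slamf7 at 11.78 to 12.56. Means were 3.79 to 4.09 for 10 neutrophil, 4.29 to 5.00 for 8 T and NK cell, 5.01 to 5.36 for 5 endothelial and 3.81 to 4.04 for 7 mast cell, erythroid and megakaryocyte markers. The mean of 10 fibroblast and stromal markers was 6.91 to 7.03 in WT MΦ, 7.38 to 8.42 in WT TAM, 5.36 to 5.42 in KO MΦ and 5.75 to 6.99 in KO TAM, so it moved with both co-culture and genotype. In bulk RNA, fewer cells of a type and less RNA per cell cannot be told apart. TAM arrays varied more than MΦ arrays (median SD over genes 0.14 and 0.144 against 0.096 and 0.105), and WT TAM 2 and KO TAM 1 are known from an earlier analysis of these data to lie apart from their groups. Leaving out arrays because they lie apart can lower the spread shared by the fit. Calls gained in a fit without these 2 arrays are therefore no added support for a difference.

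Single markers of these lists passed the test. Of all genes, 11.5% passed in WT co-culture, 6.53% in KO co-culture, 11.3% between KO and WT MΦ and 12.2% between KO and WT TAM. Of the 8 macrophage markers, 2 rose and 2 fell in WT co-culture (50%) and 4 rose and 1 fell in KO co-culture (62.5%). By genotype, 1 rose and 1 fell in KO MΦ (25%), and 1 rose and 0 fell in KO TAM (12.5%). Of the 12 plasma and B cell markers, 0 rose and 2 fell in WT co-culture (16.7%) and 0 rose and 1 fell in KO co-culture (8.33%). Between KO and WT MΦ 0 rose and 1 fell (8.33%), and between KO and WT TAM 2 rose and 0 fell (16.7%). The B cell receptor component Cd79b ranged from 5.77 to 9.16 and was lower in WT TAM than in WT MΦ (-1.82 ± 0.44, adjusted p = 0.0187), a call lost without WT MΦ 1, 2 or 3 or WT TAM 1 or 3 (adjusted p = 0.0619, 0.064, 0.0559, 0.0679 and 0.0638). Xbp1 was lower in TAM than in MΦ of WT (-0.33 ± 0.09, adjusted p = 0.0299) and KO cells (-0.41 ± 0.09, adjusted p = 0.017), calls lost in 6 and 5 of 16 alternatives, among them without any of the MΦ arrays compared, WT TAM 2 or 3 or KO TAM 2 (adjusted p up to 0.0946 and 0.0717). Sdc1 was lower in KO than in WT MΦ (-1.19 ± 0.23, adjusted p = 0.00726). Slamf7 was higher in KO than in WT TAM (0.38 ± 0.09, adjusted p = 0.0149), a call lost without WT TAM 1 (0.0513) or KO TAM 3 (0.0533) and with only the 6 TAM arrays in the fit (0.124), and Cd79b was too, with overlapping arrays (1.498 ± 0.44, adjusted p = 0.0439). Of the 8 T and NK cell markers, 1 rose and 0 fell in WT co-culture, in KO against WT MΦ and in KO against WT TAM (12.5% each). In KO co-culture 0 passed. The only one called was Cd4, and the Cd3 genes and Cd8a did not pass. Cd4 was higher in KO than in WT MΦ (2.14 ± 0.31, adjusted p = 0.00129) and TAM (2.06 ± 0.31, adjusted p = 0.0013). It was also higher in WT TAM than in WT MΦ (1.11 ± 0.31, adjusted p = 0.0363), a call lost in 7 of 16 alternatives, among them without WT MΦ 1, 2 or 3 or WT TAM 1 or 3 (up to 0.117). Of the 5 endothelial markers, 1 rose and 1 fell in WT co-culture (40%) and 0 rose and 1 fell in KO co-culture (20%). Between KO and WT MΦ 0 passed, and between KO and WT TAM 1 rose and 1 fell (40%). Cdh5, Tek and Emcn passed in none of these. Pecam1 was lower in TAM than in MΦ of WT (-2.38 ± 0.31, adjusted p = 0.000598) and KO cells (-1.40 ± 0.31, adjusted p = 0.0216) and higher in KO than in WT TAM (1.71 ± 0.31, adjusted p = 0.00434). Its KO co-culture call was lost without KO MΦ 1, 2 or 3 (0.0706, 0.0768 and 0.0705), and both it and the call between TAM groups (0.0687) with only the 2 groups compared in the fit. Kdr was higher in WT TAM than in WT MΦ (1.9975 ± 0.34, adjusted p = 0.00293) and lower in KO than in WT TAM, with overlapping arrays (-1.27 ± 0.34, adjusted p = 0.0315). Of the 10 stromal markers, 2 rose and 0 fell in each co-culture comparison (20%). In KO against WT cells 0 rose and 5 fell in MΦ (50%), and 0 rose and 6 fell in TAM (60%). Postn had the largest of these differences, -3.81 in MΦ and -2.98 in TAM. Its TAM call was lost with only the 6 TAM arrays in the fit (0.11). The part of cells bearing these markers in the levels of the factors was not tested.

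Spi1 and Batf3 were lower, and Irf8 higher, in TAM than in MΦ of both genotypes. Irf8 was also higher in KO than in WT cells in both cultures, by the brighter of its 2 probe sets. In WT cells 4 of the 8 measured factors passed the test, Irf8 and Cebpa upward and Spi1 and Batf3 downward, where 11.5% of all genes passed (5.89% higher and 5.66% lower). In KO cells 3 passed, Irf8 upward and Spi1 and Batf3 downward, where 6.53% of all genes passed (2.9% higher and 3.63% lower). Between KO and WT MΦ the 1 factor called was Irf8, higher in KO, against 11.3% of all genes (5.19% higher and 6.13% lower), and between KO and WT TAM Irf8, Maf and Spi1 were called, all higher in KO, against 12.2% of all genes (5.03% higher and 7.19% lower). The test of whether the co-culture difference itself differed between genotypes called none of the 8, against 0.194% of all genes (0.104% higher and 0.0902% lower). In that test Spi1 and Irf4 (4.50 to 4.85 on all arrays) had an unadjusted p under 0.05. The share of all genes under 0.05 without adjustment was not counted, here or for the unadjusted counts further below. The arrays of the groups compared did not overlap for 5 of the 8 factors in WT co-culture (30.1% of all genes), 5 in KO co-culture (26.3%), 5 between KO and WT MΦ (38.5%) and 3 between KO and WT TAM (24.6%). The median difference of the 8 factors was 0.15 in WT co-culture, -0.06 in KO co-culture, 0.19 between KO and WT MΦ and 0.23 between KO and WT TAM, where the medians of all genes were 0.0077, -0.013, 0.038 and 0.024. The 2 co-culture comparisons share no array, and 6 of 8 factors had the same sign in both, as did 63.3% of all genes. The exceptions were Irf4 and Klf4, which passed in neither.

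**Figure D1:**
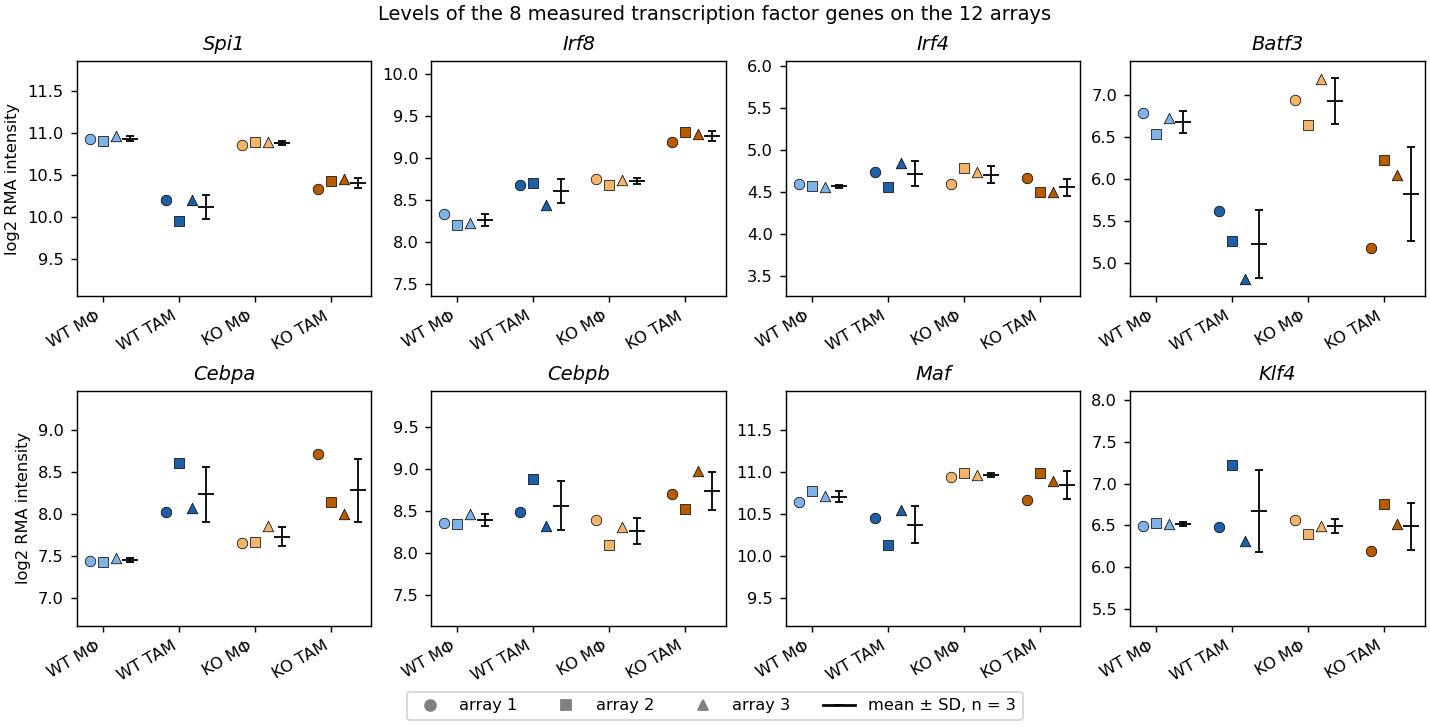
Log2 RMA intensity of the 8 measured factors on each of the 12 arrays, with 1 panel per gene, points for arrays 1, 2 and 3 of each group and the group mean with its SD. Spi1 lies lower on every TAM array than on every MΦ array, Irf8 is highest on the 3 KO TAM arrays, and Irf4 stays between 4.50 and 4.85.

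Spi1 encodes PU.1, the ETS-family factor without which macrophages do not form. Its level was 10.92, 10.90 and 10.96 on the WT MΦ arrays and 10.20, 9.95 and 10.20 on the WT TAM arrays. It was 10.85, 10.89 and 10.89 in KO MΦ and 10.33, 10.43 and 10.45 in KO TAM. Every TAM array was thus below every MΦ array, and the 3 KO TAM arrays were above the 3 WT TAM arrays. TAM and MΦ differed by -0.81 ± 0.08 in WT cells, 1.76-fold (adjusted p = 0.000161), and by -0.48 ± 0.08 in KO cells, 1.39-fold (adjusted p = 0.00687). Both calls held under each of the 16 alternatives run. KO and WT MΦ differed by -0.05 ± 0.08 (95% interval -0.24 to 0.13, adjusted p = 0.774), without overlap. KO TAM exceeded WT TAM by 0.28 ± 0.08, 1.22-fold (adjusted p = 0.0475). That call was lost in 9 of 16 alternatives, with adjusted p = 0.213 when only the 6 TAM arrays entered the fit, 0.126 with arrays centred on their medians, and 0.0587, 0.119, 0.0569, 0.13 and 0.133 without WT TAM 1, 2 or 3 or KO TAM 2 or 3. The co-culture differences of the genotypes differed by 0.34 ± 0.12 (95% interval 0.07 to 0.60, adjusted p = 0.363).

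Irf8 encodes a partner of PU.1 that directs monocyte and dendritic cell development and interferon-response genes. Its levels were ordered from WT MΦ (8.34, 8.20 and 8.23) through WT TAM (8.68, 8.70 and 8.45) and KO MΦ (8.75, 8.68 and 8.74) to KO TAM (9.19, 9.31 and 9.29). Only the middle groups of that order, WT TAM and KO MΦ, overlapped. TAM exceeded MΦ by 0.35 ± 0.09 in WT cells, 1.28-fold (adjusted p = 0.0227), and by 0.54 ± 0.09 in KO cells, 1.46-fold (adjusted p = 0.00432). KO exceeded WT by 0.47 ± 0.09 in MΦ, 1.38-fold (adjusted p = 0.00569), and by 0.66 ± 0.09 in TAM, 1.58-fold (adjusted p = 0.000706). The rise in KO cells held under all 16 alternatives. The rise in WT cells was lost without WT MΦ 2 (adjusted p = 0.0882), WT MΦ 3 (0.0826), WT TAM 1 (0.0842) or WT TAM 2 (0.0604), and with only the 6 WT arrays in the fit (0.0649). The co-culture differences of the genotypes differed by 0.19 ± 0.13 (adjusted p = 0.684).

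The promoter window of Irf8 is shown because this factor differed in all 4 pairwise comparisons, and those of Batf3 and Cebpa because each factor passed in WT co-culture and its window held a match to a motif searched. The sequences are the 250 bases before the annotated start, from RefSeq on assembly GRCm38.p6, plus strand, and 7 of the 9 genes were found there. Capitals mark matches to the motifs searched on both strands.
Irf8, chr8:120736108-120736357: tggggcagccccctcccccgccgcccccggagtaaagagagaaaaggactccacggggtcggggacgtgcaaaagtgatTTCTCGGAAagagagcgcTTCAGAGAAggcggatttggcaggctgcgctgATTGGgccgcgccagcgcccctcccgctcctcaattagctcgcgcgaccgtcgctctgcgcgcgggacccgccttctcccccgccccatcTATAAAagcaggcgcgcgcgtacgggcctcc
Batf3, chr1:191098164-191098413: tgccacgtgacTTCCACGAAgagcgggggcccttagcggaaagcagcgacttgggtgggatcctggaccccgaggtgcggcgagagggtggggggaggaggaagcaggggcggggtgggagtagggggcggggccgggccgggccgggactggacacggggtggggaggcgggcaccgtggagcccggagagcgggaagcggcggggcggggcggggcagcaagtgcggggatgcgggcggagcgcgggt
Cebpa, chr7:35119043-35119292: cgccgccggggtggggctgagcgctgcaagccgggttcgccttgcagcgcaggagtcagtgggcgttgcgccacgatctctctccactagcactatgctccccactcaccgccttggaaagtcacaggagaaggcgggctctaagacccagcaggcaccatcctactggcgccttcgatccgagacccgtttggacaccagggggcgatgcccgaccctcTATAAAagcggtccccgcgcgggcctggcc

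The Irf8 window held the gamma-activated site TTCNNNGAA, the letters bound by STAT dimers, at 171 to 163 bases before the start (TTCTCGGAA) and again at 153 to 145 (TTCAGAGAA). It also held a CCAAT box on the minus strand and TATAAA at 31 to 26 bases before the start. The Batf3 window held TTCNNNGAA at 239 to 231 bases before the start (TTCCACGAA), and the Cebpa window held TATAAA at 30 to 25. Of 32851 promoter windows of the same length, 7.02% held TTCNNNGAA, 33.8% CCAAT and 12.4% TATAAA. None of the 3 windows held the PU.1 letters GAGGAAGT (2.44% of windows), GAAA repeated at a spacing of 2 bases, as in interferon-stimulated response elements (2.98%), TGANTCA of AP-1 (6.75%), TTGCNNAA of C/EBP (9.56%) or CCACACCC of KLF factors (3.2%). RefSeq lists a further Irf8 window, chr8:120738389-120738638, which held 0 matches to these motifs and is not shown. A match is a description of letters and not a binding site.

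A second probe set of Irf8, with a mean level of 4.91, passed in no comparison. In both co-culture comparisons it had the direction of the brighter one (0.35 in WT and 0.54 in KO cells). It differed by 0.20 in WT co-culture (adjusted p = 0.529), 0.45 in KO co-culture (0.134), -0.16 between KO and WT MΦ (0.594) and 0.09 between KO and WT TAM (0.808). With the mean of both probe sets in place of the brighter one, the WT co-culture call (adjusted p = 0.155) and both genotype calls (0.452 in MΦ and 0.0516 in TAM) were lost. The dimmer probe set lay under 5.34, the median over the mean levels of all genes. The genotype difference of Irf8 in MΦ, seen in 3 of 3 arrays with the brighter probe set, had the opposite sign in the dimmer one.

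**Figure D2:**
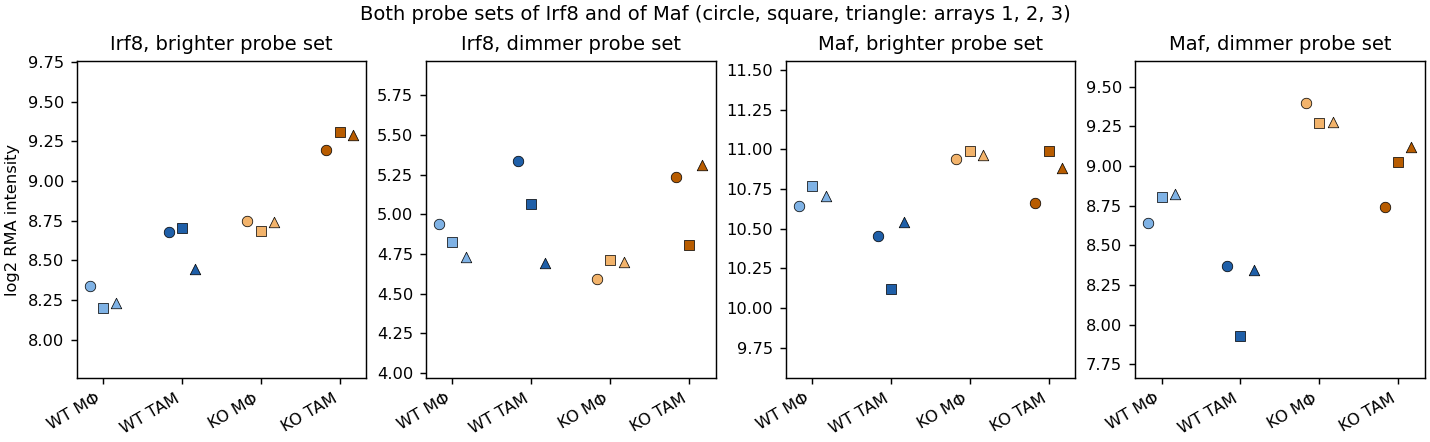
Log2 RMA intensity of both probe sets of Irf8 and of Maf on each array, with axes of equal span. The brighter Irf8 probe set separates KO TAM from the other groups and the dimmer one does not, whereas both Maf probe sets put WT TAM lowest.

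Batf3, a bZIP factor that pairs with JUN proteins and binds with IRF8 or IRF4, had the largest differences of the 8 factors on co-culture. Its level was 6.79, 6.54 and 6.73 in WT MΦ and 5.62, 5.26 and 4.81 in WT TAM. In KO MΦ it was 6.95, 6.65 and 7.20, and in KO TAM 5.19, 6.24 and 6.06. Every TAM array lay below every MΦ array, and KO TAM 1 lay among the WT TAM arrays. WT TAM 2 and 3 and KO TAM 1 were under 5.34, the median over the mean levels of all genes. TAM and MΦ differed by -1.45 ± 0.26 in WT cells, 2.74-fold (adjusted p = 0.00364), a call that held under all 16 alternatives. In KO cells the difference was -1.10 ± 0.26, 2.15-fold (adjusted p = 0.0273), a call lost without KO MΦ 1 (0.088), KO MΦ 3 (0.111) or KO TAM 1 (0.0593), without both KO TAM 1 and WT TAM 2 (0.0565), with the replicate block (0.0502) and with only the 6 KO arrays in the fit (0.0925). KO and WT MΦ differed by 0.25 ± 0.26 (adjusted p = 0.619). KO TAM exceeded WT TAM by 0.60 ± 0.26 (adjusted p = 0.179), and by 0.91 without KO TAM 1, where the difference passed (0.0128), as it did with array weights (0.0157) and without both WT TAM 2 and KO TAM 1 (0.023). The co-culture differences of the genotypes differed by 0.35 ± 0.37 (adjusted p = 0.822).

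Batf3 and Irf8 are best known from conventional dendritic cells. The mean of 9 measured dendritic cell markers was 5.34 to 5.52 on all 12 arrays. Among them Flt3 lay at 4.14 to 4.74 and Zbtb46 at 4.39 to 4.90, while Cd209a lay at 7.87 to 8.45 and the adhesion molecule Cadm1 at 7.88 to 9.94. Cadm1 was above MΦ on every TAM array of the same genotype, by 1.08 ± 0.37 in WT cells (adjusted p = 0.0859) and 0.88 ± 0.37 in KO cells (adjusted p = 0.202), and did not pass. Of these 9 markers 1 passed in each co-culture comparison (11.1%), where 11.5% of all genes passed in WT and 6.53% in KO co-culture. It was the chemokine receptor Xcr1, which was lower in TAM (-0.45 ± 0.12 in WT cells, adjusted p = 0.0255, and -0.62 ± 0.12 in KO cells, adjusted p = 0.00891). Its values on the 12 arrays, 4.19 to 5.29, were all under 5.34, the median over the mean levels of all genes. The WT call of Xcr1 was lost without WT MΦ 2 (0.0956), WT MΦ 3 (0.0983), WT TAM 1 (0.0866) or WT TAM 2 (0.0509). Its KO call was lost with only the 6 KO arrays in the fit (0.0581). Xcr1 was also higher in KO than in WT MΦ (0.498, adjusted p = 0.0168). That call was lost without WT MΦ 1 (0.0773), KO MΦ 2 (0.0685) or KO MΦ 3 (0.0605). The part of these markers in the difference of Batf3 was not tested.

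Cebpa, which drives the myeloid progenitor programme and works with PU.1, rose in WT TAM. Its level was 7.44, 7.43 and 7.47 in WT MΦ and 8.02, 8.61 and 8.07 in WT TAM, with WT TAM 2 highest. In KO MΦ it was 7.65, 7.67 and 7.86, and in KO TAM 8.71, 8.14 and 7.99, with KO TAM 1 highest. In both genotypes every TAM array was above every MΦ array. TAM exceeded MΦ by 0.79 ± 0.18 in WT cells, 1.72-fold (adjusted p = 0.0164). That call was lost without WT MΦ 1, 2 or 3 (adjusted p = 0.0581, 0.0549 and 0.0518). In KO cells the difference was 0.56 ± 0.18 (adjusted p = 0.102), and it passed without KO TAM 3 (0.0498) or with array weights (0.0277). KO MΦ exceeded WT MΦ by 0.28 ± 0.18 without overlap (adjusted p = 0.395), and passed where only the 6 MΦ arrays entered the fit (0.0391). KO and WT TAM differed by 0.05 ± 0.18 (95% interval -0.35 to 0.45, adjusted p = 0.914). The co-culture differences of the genotypes differed by -0.23 ± 0.26 (adjusted p = 0.836).

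Cebpb, the C/EBP factor induced by inflammatory and metabolic signals, passed in no comparison. Its level was 8.36, 8.34 and 8.47 in WT MΦ, 8.49, 8.89 and 8.32 in WT TAM, 8.39, 8.09 and 8.31 in KO MΦ, and 8.71, 8.53 and 8.98 in KO TAM. The WT groups overlapped, and the KO TAM arrays all lay above the KO MΦ arrays. The differences were 0.17 ± 0.15 in WT co-culture (adjusted p = 0.558), 0.47 ± 0.15 in KO co-culture (95% interval 0.14 to 0.80, adjusted p = 0.0904), -0.13 between KO and WT MΦ (adjusted p = 0.668) and 0.17 between KO and WT TAM (adjusted p = 0.546). The co-culture differences of the genotypes differed by 0.30 ± 0.21 (adjusted p = 0.705).

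The WT TAM array with the highest Cebpa, Cebpb and Klf4, WT TAM 2, also had the highest stromal marker mean, 8.42 where the other WT TAM arrays had 7.38 and 7.53. Among KO TAM arrays it was highest on KO TAM 1 (6.99, against 6.69 and 5.75), which had the highest Cebpa of its group but not the highest Cebpb, and the lowest Klf4 of all 12 arrays (6.19). KO MΦ had a lower stromal mean than WT MΦ and a higher Cebpa. The part of stromal cells in these levels was not tested. Without WT TAM 2 and KO TAM 1, on which its levels of 8.61 and 8.71 stood highest, Cebpa was 0.60 higher in WT TAM than in WT MΦ (adjusted p = 0.000966), and its differences of 0.34 in KO co-culture (0.0351) and 0.28 between KO and WT MΦ (0.0299) passed. The MΦ difference was 0.28 with all 12 arrays too (adjusted p = 0.395), and no MΦ array was left out. The smaller p-values thus follow from the choice of arrays and are no added support.

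**Figure D3:**
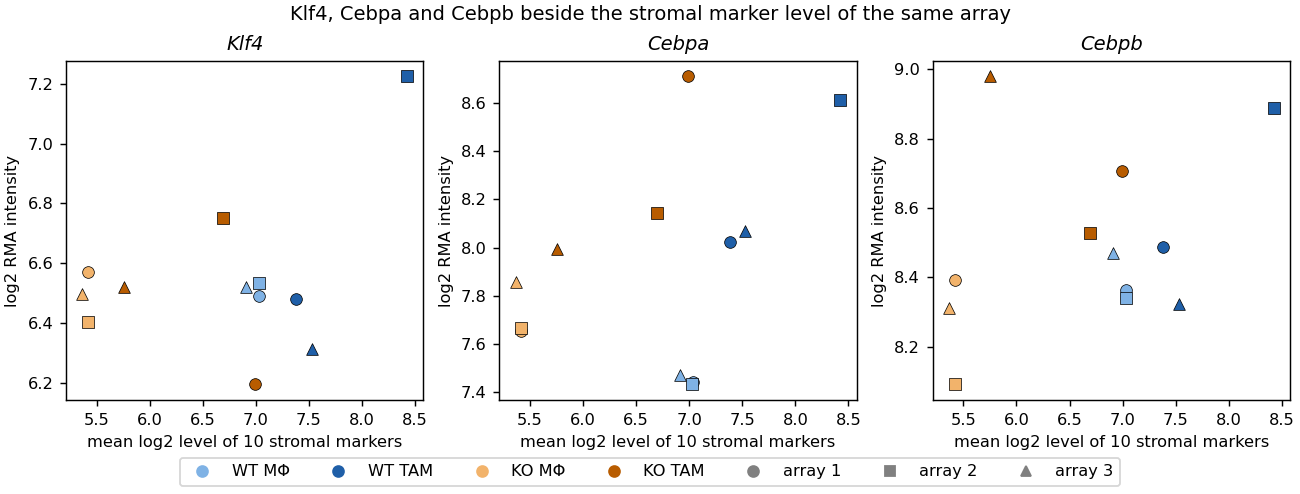
Log2 RMA intensity of Klf4, Cebpa and Cebpb on each array against the mean log2 level of 10 fibroblast and stromal markers on the same array. WT TAM 2 lies farthest right at 8.42 and is high in all 3 panels, whereas the KO MΦ arrays lie farthest left at 5.36 to 5.42.

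Maf, which encodes c-MAF, was lowest in WT TAM and higher in KO TAM. Its level was 10.64, 10.77 and 10.71 in WT MΦ and 10.45, 10.12 and 10.54 in WT TAM, with WT TAM 2 lowest. In KO MΦ it was 10.94, 10.99 and 10.97, and in KO TAM 10.66, 10.99 and 10.89. All KO arrays lay above all WT TAM arrays, while KO TAM overlapped with both MΦ groups. KO TAM exceeded WT TAM by 0.47 ± 0.12, 1.39-fold (adjusted p = 0.0201), a call lost without KO TAM 2 (0.0848) or KO TAM 3 (0.0633) and with only the 6 TAM arrays in the fit (0.138). WT TAM lay below WT MΦ by -0.33 ± 0.12 without overlap (adjusted p = 0.092), and KO MΦ above WT MΦ by 0.26 ± 0.12 without overlap (adjusted p = 0.191). The latter passed with only the 6 MΦ arrays in the fit (0.0265), with array weights (0.0406) and without WT TAM 2 and KO TAM 1 (0.0223). KO co-culture gave -0.12 ± 0.12 (adjusted p = 0.64), and the genotypes' co-culture differences differed by 0.21 ± 0.16 (adjusted p = 0.731).

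The second probe set of Maf, with a mean level of 8.81, had the same direction in each comparison and larger differences in the 4 pairwise ones. Over all probe sets it was called in WT co-culture (-0.54 ± 0.13, adjusted p = 0.0197), between KO and WT MΦ (0.56, adjusted p = 0.0184) and between KO and WT TAM (0.75, adjusted p = 0.0035), but not in KO co-culture (-0.35, adjusted p = 0.149). With the mean of both probe sets, Maf passed in WT co-culture (adjusted p = 0.0356) and between KO and WT MΦ (0.0494).

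Irf4 and Klf4, the members of the list known for alternative activation, passed in no comparison of the fit to all 12 arrays. Irf4 read 4.59, 4.57 and 4.56 in WT MΦ, 4.74, 4.56 and 4.85 in WT TAM, 4.60, 4.78 and 4.74 in KO MΦ and 4.67, 4.50 and 4.50 in KO TAM. All 12 values were under the median of 5.34 over all genes, at which level a change may not be seen. Its differences were 0.15 in WT co-culture (95% interval -0.06 to 0.35, adjusted p = 0.411), -0.15 in KO co-culture (-0.36 to 0.05, adjusted p = 0.426), 0.14 between KO and WT MΦ, without overlap (adjusted p = 0.424), and -0.16 between KO and WT TAM (adjusted p = 0.327). Without WT TAM 2 and KO TAM 1 the difference between KO and WT TAM was -0.30 and passed (0.0371). The co-culture differences of the genotypes differed by -0.30 ± 0.13 (adjusted p = 0.512).

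Klf4 read 6.49, 6.54 and 6.52 in WT MΦ, 6.48, 7.22 and 6.31 in WT TAM, 6.57, 6.40 and 6.50 in KO MΦ and 6.19, 6.75 and 6.52 in KO TAM. All groups overlapped, and WT TAM 2 stood above every other array. The differences were 0.16 in WT co-culture (95% interval -0.28 to 0.60, adjusted p = 0.718), -0.0019 in KO co-culture (-0.44 to 0.44, adjusted p = 0.997), -0.03 between KO and WT MΦ (adjusted p = 0.959) and -0.18 between KO and WT TAM (adjusted p = 0.639). Without WT TAM 2 the WT co-culture difference was -0.12, so that its sign rested on that array. The interaction was -0.16 ± 0.28 (adjusted p = 0.908).

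**Figure D4:**
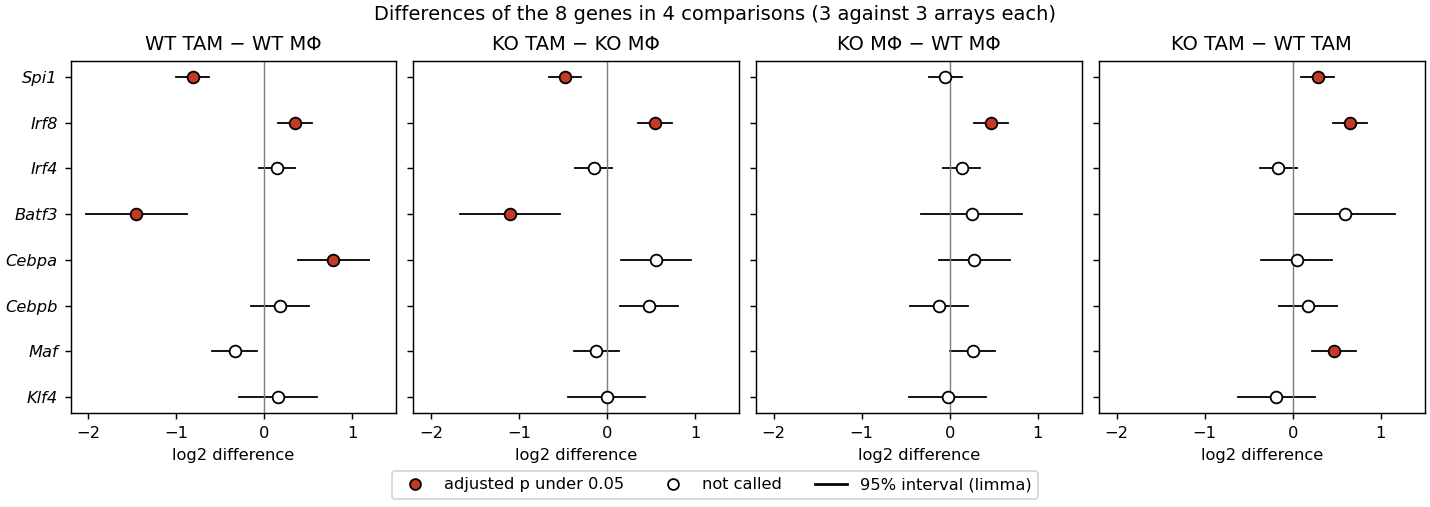
Log2 difference of each of the 8 factors in the 4 pairwise comparisons, with the 95% interval of the limma fit as a bar and filled points for differences at an adjusted p under 0.05. Spi1 and Batf3 lie below 0 in both co-culture comparisons, and Irf8 lies above 0 in all 4.

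The families to which these factors belong were counted next. These counts, and those of the target lists after them, stand beside shares of all genes called of 11.5% in WT co-culture, 6.53% in KO co-culture, 11.3% between KO and WT MΦ and 12.2% between KO and WT TAM. Of 15 listed factors, either of the ETS, RUNX, IKAROS and MYB families or Gfi1, 7 fell and 0 rose in WT co-culture (median -0.25). Ikzf1, which encodes IKAROS, was lower in TAM (-1.29 ± 0.14, 2.44-fold, adjusted p = 0.000241), and the PU.1 relatives Spic (-2.15 ± 0.49, adjusted p = 0.0145) and Spib (-0.83 ± 0.18, adjusted p = 0.0111) fell as well. The Spic call was lost without WT MΦ 1 (adjusted p = 0.0597), WT TAM 1 (0.0557) or WT TAM 3 (0.0565), and the Spib call without WT MΦ 2 (0.0527). Spib read only 3.16 to 4.50 on the 12 arrays, under the median of 5.34 over all genes. Its difference was -0.94 to -0.39 over the alternatives. In KO co-culture 2 fell and 0 rose (median -0.22), Myb (-1.54 ± 0.19, adjusted p = 0.000698) and Ikzf1 (-0.67 ± 0.14, adjusted p = 0.0177). Myb, which has 2 probe sets, lay at 4.22 to 5.01 in KO TAM, also under that median. Its KO co-culture difference was -1.70 to -0.79 over the alternatives. The Ikzf1 call in KO cells was lost without KO MΦ 1, 2 or 3 (0.0743, 0.058 and 0.0553) and with only the 6 KO arrays in the fit (0.093). By genotype, in MΦ 1 rose in KO, Myb (0.90 ± 0.19, adjusted p = 0.00921), and 0 fell. Between KO and WT TAM 3 rose and 0 fell (median 0.09), Spic (2.75 ± 0.49, 6.72-fold, adjusted p = 0.00369), Ikzf1 (0.69 ± 0.14) and Elf4 (0.32, adjusted p = 0.0179). The Elf4 call was lost in 4 of 16 alternatives (adjusted p up to 0.133). Spi1, Ikzf1 and Spic were thus each lower in WT than in KO TAM. The calls of Spi1 (adjusted p = 0.213), Spic (0.0625) and Ikzf1 (0.0965) were lost with only the 6 TAM arrays in the fit. That of Spi1 was lost in 9 of 16 alternatives. Spic read 8.40 on KO TAM 1, against 10.38 and 10.80 on KO TAM 2 and 3.

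Of 5 other interferon regulatory factors, 1 rose in WT co-culture, Irf1 (0.82 ± 0.23, adjusted p = 0.0386), a call lost without WT MΦ 1, 2 or 3 or WT TAM 1 or 3 (adjusted p up to 0.142), and 0 passed in the other 3 pairwise comparisons. At an unadjusted p under 0.05 these comparisons had 1 (Irf1, KO co-culture), 0 (KO against WT MΦ) and 2 (Irf2 and Irf7, KO against WT TAM). Among 18 other bZIP factors, 3 rose and 1 fell in WT co-culture (median 0.19). Fosb (1.16 ± 0.22, adjusted p = 0.00546) and Fos (0.76 ± 0.14, adjusted p = 0.00436) of AP-1 rose, while Cebpd, a C/EBP relative of Cebpa, fell (-1.11 ± 0.14, adjusted p = 0.000396). In KO co-culture 1 rose and 1 fell, between KO and WT MΦ 3 rose and 0 fell, and between KO and WT TAM 1 rose and 0 fell. Fosb was higher in KO than in WT MΦ (1.48 ± 0.22, adjusted p = 0.00169). Of 10 STAT and NF-kappaB factors 2 fell in WT co-culture, Nfkbiz (-1.63 ± 0.19, adjusted p = 0.000303) and Rel (-0.82 ± 0.14, adjusted p = 0.00273). In KO co-culture 1 fell, Nfkbiz (-0.78, adjusted p = 0.0321), and between KO and WT MΦ 0 passed (0 at an unadjusted p under 0.05). That KO co-culture call was lost in 5 of 16 alternatives, among them without KO MΦ 1, 2 or 3 and with only the 6 KO arrays in the fit (adjusted p up to 0.124). Nfkbiz and Rel were higher in KO than in WT TAM (0.94 and 0.71), calls lost with only the 6 TAM arrays in the fit (adjusted p = 0.0922 and 0.0831).

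Of 19 other factors of macrophage identity and state, 5 rose and 2 fell in each co-culture comparison (medians 0.11 and 0.30). Bhlhe41, a repressor of the clock family that takes part in macrophage self-renewal, rose by 2.06 ± 0.13 in WT cells, 4.18-fold (adjusted p = 1.12e-05), and by 1.22 ± 0.13 in KO cells (adjusted p = 0.000352). By genotype, 4 rose in KO and 1 fell in MΦ and 2 rose and 2 fell in TAM. Nr4a1, an immediate early nuclear receptor, was higher in KO than in WT MΦ (1.04 ± 0.12, adjusted p = 0.000511) and TAM (0.60 ± 0.12, adjusted p = 0.00824). Id2, an inhibitor of E proteins, was higher in KO than in WT MΦ (0.67 ± 0.07, adjusted p = 0.000346), and its co-culture difference was smaller in KO cells (-0.70 ± 0.10, adjusted p = 0.0236), a call lost in 9 of 21 alternatives.

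Genes that textbooks give as targets of these factors were counted in the same way, with shared members. Of 17 measured PU.1 targets, 3 rose and 7 fell in WT co-culture (median -0.20). The genes that fell were the integrins Itgam and Itgb2, Adgre1, Btk, Csf3r, Ncf1 and Ncf4, and Msr1 (0.99 ± 0.18, adjusted p = 0.00351) and Tlr4 (0.71 ± 0.13, adjusted p = 0.0033) were among those that rose. In KO co-culture 6 rose and 2 fell (median 0.28), with the scavenger receptor Msr1 at 2.06 ± 0.18 (4.18-fold, adjusted p = 7.2e-05) and the Fc receptor Fcgr1 at 1.402 ± 0.08 (2.64-fold, adjusted p = 9.17e-06). Spi1 fell in that comparison as well. Between KO and WT MΦ 0 rose and 4 fell (median -0.21), among them Msr1 (-1.86 ± 0.18), Fcgr1 (-1.003 ± 0.08) and Csf2ra (-0.996 ± 0.09), with Spi1 at -0.05. Between KO and WT TAM 1 rose, Csf3r (1.28 ± 0.16, adjusted p = 0.000498), and 2 fell.

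Of 15 IRF8 and IRF5 targets, 0 rose and 2 fell in WT co-culture (median -0.19) and 1 rose and 0 fell in KO co-culture (median 0.15). These shares of 13.3% and 6.67% lay near those of all genes, 11.5% and 6.53%. A share of 26.7% was called between KO and WT TAM, against 12.2% of all genes: 4 rose and 0 fell between KO and WT TAM (median 0.19). Il1b, which encodes interleukin-1 beta, fell in WT TAM (-1.86 ± 0.34, adjusted p = 0.0039). The 4 higher in KO TAM were Ccl5 (1.82 ± 0.43), Il18 (0.69 ± 0.12), Ctsc (0.46 ± 0.09) and Ciita (0.44 ± 0.11), and these 4 calls were lost with only the 6 TAM arrays in the fit (adjusted p = 0.126, 0.0591, 0.0756 and 0.0831). The call of Ccl5 was also lost without WT TAM 1 (0.0615) or 3 (0.0512), and that of Ciita without WT TAM 1 (0.0861), WT TAM 2 (0.0525), KO TAM 1 (0.061) or KO TAM 3 (0.0638). In KO against WT MΦ 1 rose, the cathepsin Ctsc (0.39 ± 0.09, adjusted p = 0.0118), and 1 fell. Of 13 alternative activation genes 2 rose and 0 fell in each co-culture comparison (medians 0.11 and -0.03), the mannose receptor Mrc1 (1.98 ± 0.27 in WT cells, adjusted p = 0.000701; 1.59 ± 0.27 in KO cells, adjusted p = 0.005) and Tgm2 (1.75 ± 0.13 in WT cells, adjusted p = 1.85e-05; 0.58 ± 0.13 in KO cells, a call lost without KO MΦ 1 (0.0889), KO MΦ 2 (0.0753) or KO TAM 1 (0.0608)), while Irf4 and Klf4 did not pass. By genotype, 0 of the 13 passed in MΦ (1, Ccl17, at an unadjusted p under 0.05), and in TAM Tgm2 was lower in KO (-0.96 ± 0.13, adjusted p = 0.000671).

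Of 16 C/EBP targets, 2 rose and 2 fell in WT co-culture (median 0.01), and 3 rose and 0 fell in KO co-culture (median 0.18). The acute phase gene Saa3 (2.003 ± 0.26, 4.01-fold, adjusted p = 0.00125) was among those that rose in KO cells. By genotype, 0 rose and 3 fell in KO MΦ, and 2 rose and 1 fell in TAM. Of 16 genes of the c-MAF and tissue macrophage programme, 7 rose and 1 fell in WT co-culture (median 0.41) and 6 rose and 0 fell in KO co-culture (median 0.45), though Maf was not higher in either. Pf4 (3.07 ± 0.63, adjusted p = 0.00803), Mrc1 and the apoptotic cell receptor Mertk (1.08 ± 0.13, adjusted p = 0.000435) rose in WT TAM, and the folate receptor Folr2 (1.72 ± 0.11, adjusted p = 1.38e-05) and Mertk (0.75 ± 0.13, adjusted p = 0.00742) rose in KO TAM. Of these 16 genes, 3 rose and 2 fell in KO against WT MΦ (median 0.0025), and 3 rose and 1 fell in KO against WT TAM (median 0.07). The genes higher in KO TAM were Mertk (0.52), Selenop (0.46) and the known c-MAF target Il10 (1.51 ± 0.33, 2.85-fold, adjusted p = 0.0119). Folr2 was lower there (-0.43), while Maf was higher. The Il10 call was lost without KO TAM 2 (0.0527) and with only the 6 TAM arrays in the fit (0.112). Between KO and WT MΦ, Mertk (0.85 ± 0.13) and C1qc (0.42 ± 0.08) were higher and Cbr2 (-1.73 ± 0.33) and Folr2 (-1.56 ± 0.11) lower.

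**Figure D5:**
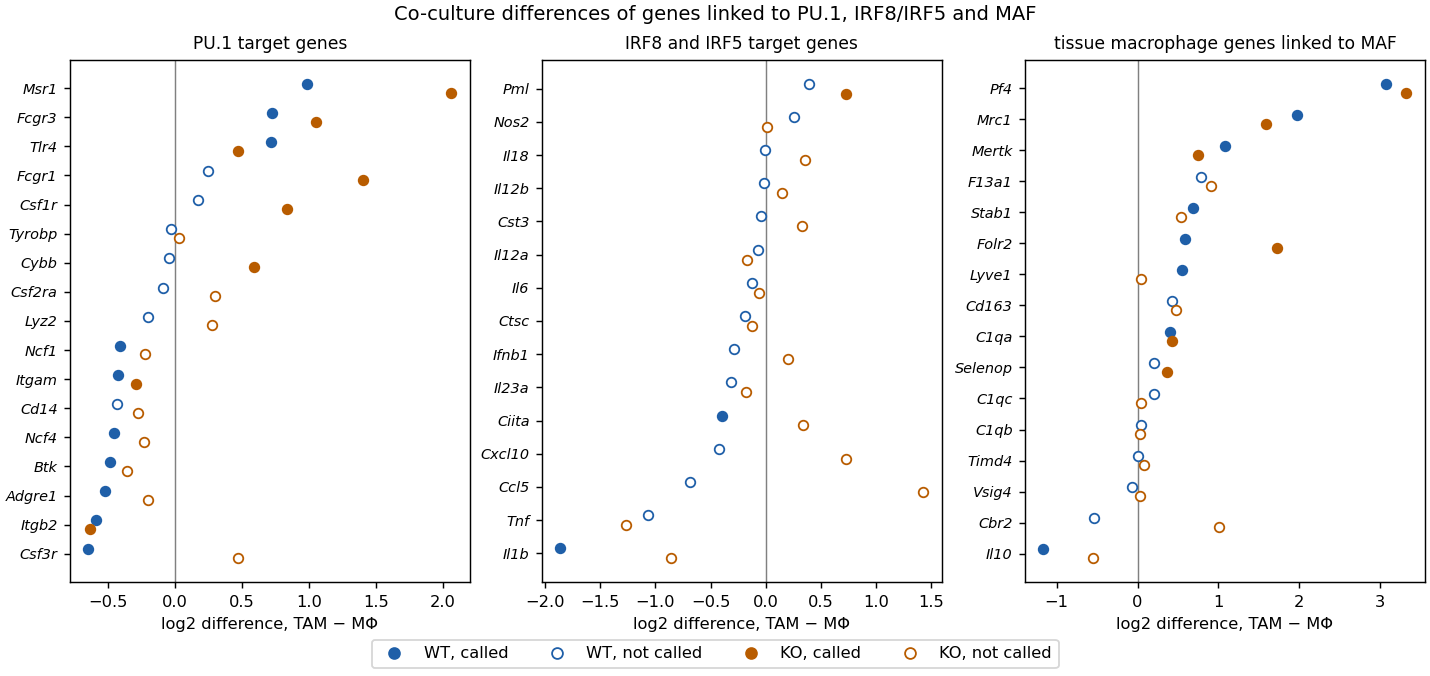
Log2 difference between TAM and MΦ for each gene of 3 target lists, in WT (blue) and KO (orange) cells, with filled points for genes at an adjusted p under 0.05 and a grey line at 0. The PU.1 targets have a median of -0.20 in WT co-culture and 0.28 in KO co-culture, and the c-MAF and tissue macrophage genes have medians of 0.41 and 0.45.

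The genes whose pattern over the 12 arrays was most like that of a factor were found by the root mean square difference of log2 levels, each centred on its own mean. Predicted, clone-named, pseudogene, small RNA, olfactory, vomeronasal and immunoglobulin genes were left out of this search by their names, so a nearer gene among them would not be seen. Nearest to Spi1 were Wdfy3 (0.0703), Nin (0.0711) and Otulin (0.0784). Nearest to Irf8 were Ankle2 (0.113), Rxra (0.126) and Tent5a (0.126), and nearest to Maf were Rapgef6 (0.076), Dse (0.0819) and Arhgap39 (0.0822). Nearest to Cebpa were Nabp1 (0.113), Mok (0.141) and Cyth1 (0.143), and nearest to Batf3 were Phtf2 (0.164), Rap1gap2 (0.196) and Cdk19 (0.222). These distances compare with an SD over the 12 arrays of 0.36 for Spi1, 0.385 for Irf8, 0.426 for Cebpa, 0.262 for Maf and 0.779 for Batf3. No factor was among the 3 nearest genes of another.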

How the data were processed

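The authors deposited 1 table of intensity values on a linear scale, per probe set and array, made with RMA per the submitters' processing notes, which also name limma and give no version. RMA corrects background, quantile-normalizes arrays and summarises probes, so a shift common to most genes is removed. Genome build and probe mapping were not given in the sources used here. Values were turned to log2 with no pseudocount.

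Of 41345 probe sets, 23521 had 1 gene symbol in the array's annotation, 1814 had several and 16010 none; the last 2 kinds were left out. For 1082 genes with several probe sets the one with the highest mean was kept, which left 22180 genes, with no filter on level. Array medians were 31.3 to 33.3, and the number of arrays limits the precision.

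Differences came from limma 3.58.1 in R 4.3.3 (lmFit, eBayes, 4 group means, 12 arrays, 8 residual degrees of freedom), with Benjamini-Hochberg adjustment over all genes in each of 5 comparisons. A gene was called under 0.05. Since TAM arrays varied more, the common spread can understate p for TAM against TAM and overstate it for MΦ against MΦ. The scripts were tested on simulated data.

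The 9 genes, 10 lists of related factors and targets and 8 marker lists were written from textbook knowledge with earlier results of these data known. Named were all 9 genes, up to 4 called genes per list and comparison (largest difference, groups not overlapping) and the 3 genes nearest to each factor called. The genes that fell among PU.1 targets, genes given at an unadjusted p, markers not called (Cadm1, Cd209a) and the called Cd79b and Kdr with overlapping arrays were named after their values were seen. Promoter letters came from RefSeq.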

Additional observations from a re-analysis of the deposited data

Results flagged for a closer look

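Among the listed genes, 4 had a co-culture difference that differed between genotypes by the interaction test of limma, given as the KO minus the WT difference. Fcgr1, the high-affinity Fc receptor, gave 1.16 ± 0.12 (adjusted p = 0.00366), with a rise of 1.402 in KO cells and a difference of 0.25 in WT cells, and its call held in all 21 alternatives. Folr2, a folate receptor, gave 1.13 ± 0.16 (adjusted p = 0.0171), with 1.72 in KO and 0.59 in WT cells. Id2, an inhibitor of E proteins, gave -0.70 ± 0.10 (adjusted p = 0.0236), with 0.28 in KO and 0.98 in WT cells. Tgm2, a transglutaminase, gave -1.17 ± 0.18 (adjusted p = 0.0281), with 0.58 in KO and 1.75 in WT cells. The calls were lost in 5, 9 and 9 of 21 alternatives for Folr2, Id2 and Tgm2. For Folr2 these left out WT MΦ 1, 2 or 3 or KO MΦ 1 or 3 (adjusted p up to 0.0842). For Id2 they left out any of the 6 MΦ arrays, WT TAM 1 or KO TAM 3 (up to 0.0878), and for Tgm2 any of the 6 MΦ arrays or KO TAM 2 or 3 (up to 0.0976), beside the fit with the replicate number as a block. The interaction takes in the MΦ levels as well as the TAM levels. KO and WT MΦ differed by -1.003 for Fcgr1, -1.56 for Folr2 and 0.67 for Id2. In TAM, Fcgr1 read 11.485 to 11.73 in KO and 11.48 to 11.50 in WT cells. Id2 read 11.75 to 11.82 in KO TAM and 11.75 to 11.92 in WT TAM. KO and WT TAM differed by -0.43 for Folr2 and -0.96 for Tgm2. None of the 8 factors passed the interaction test.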

How the results depend on the processing

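Of 675 recomputed differences of the 8 factors, 611 kept their direction and their side of the threshold, 29 lost the call, 14 gained it and 21 changed sign. The alternatives were a second quantile normalization, centring on array medians, log2(intensity + 16), a filter under a mean of 5, the mean of a gene's probe sets, only the 2 groups compared, an intensity trend with robust priors, array weights, a replicate block, each array left out in turn, and WT TAM 2 and KO TAM 1 left out together. The cause of the changes below was not tested.

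The changes of sign were in Klf4 and Cebpa, which were not called in those comparisons. Klf4 in KO co-culture was 0.011 with a second quantile normalization, 0.00056 with log2(intensity + 16), 0.18 with array weights and 0.15 without both TAM arrays, and -0.13 to 0.15 without 1 array. In WT co-culture it was -0.012 with weights and -0.12 without both arrays (-0.12 to 0.34 without 1 array), between TAM groups 0.16 and 0.24 (-0.36 to 0.091), in the interaction 0.19 and 0.26 (-0.34 to 0.12), and between MΦ groups -0.066 to 0.018 without 1 array. Cebpa between TAM groups was -0.0083 with arrays centred on their medians and -0.17 to 0.24 without 1 array.

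The number of factors called went from 3 to 1 between TAM groups and from 1 to 3 between MΦ groups when only the 2 groups compared entered the fit. It was 2 between MΦ groups with array weights, and 3 between MΦ groups and 5 between TAM groups without both arrays. Without 1 array it was 2 to 4 in WT co-culture, 2 to 4 in KO co-culture, 1 to 1 between MΦ groups, 1 to 4 between TAM groups and 0 to 0 in the interaction.

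Over all genes, 2561 were called in WT co-culture, 1449 in KO co-culture, 2512 between MΦ groups, 2710 between TAM groups and 43 in the interaction. With array weights these were 3976, 2705, 4923, 4725 and 761. With only the 2 groups compared they were 505 in KO co-culture, 4716 between MΦ groups and 638 between TAM groups. Without both arrays they were 4049 in WT co-culture, 4558 and 4480 between MΦ and TAM groups and 1496 in the interaction. The interaction count was 96 with the filter, 105 with log2(intensity + 16) and 99 with trend and robust priors. Without 1 array the counts were 1475 to 2671, 611 to 1659, 1403 to 1503, 1749 to 3710 and 14 to 444.

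Replicate numbers were not taken to pair the arrays, since same-numbered arrays deviated together at correlations of -0.04 to 0.27. Between TAM groups 5 of 6 arrays correlated best with their own number, and 3, 2 and 0 of 6 in KO co-culture, WT co-culture and between MΦ groups. With the replicate block 4, 2, 1, 2 and 0 factors were called in WT co-culture, KO co-culture, MΦ, TAM and the interaction, and 26 genes in the interaction. The calls of Spi1 between TAM groups (adjusted p = 0.0674) and Batf3 in KO co-culture (0.0502) were lost. Dim probe sets, those of Irf4 and the second of Irf8, limit what can be seen of these genes.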
